A study of Mus musculus with 8 samples.

Results

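The Cdk9 knockdown of E14 embryonic stem cells (E14 ESCs, a mouse line) was compared with the control shRNA by RNA-seq, over 4 of the 8 libraries of the series. The members were taken by their labels, 2 libraries of Cdk9 shRNA (Cdk9-KD) and 2 of control shRNA, and are described over all 16504 genes that passed the filter on low counts, of 55335 counted. All cells, controls included, were infected with lentiviral shRNA, selected with puromycin and grown with LIF, CHIR99021 and PD0325901, inhibitors of GSK3 and of MEK. The other 4 libraries, 2 of Sox2-KD and 2 labelled hnRNPK-KD (the hnRNPK-labelled libraries), entered the fit to estimate the spread and serve below as a second comparison. Libraries are biological duplicates, and which of the Cdk9 shRNAs each Cdk9-KD library received is not stated in the sources used here.

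CDK9 is the kinase of P-TEFb, which pairs it with a T-type cyclin. P-TEFb phosphorylates RNA polymerase II, NELF and DSIF and so releases polymerase that has paused shortly after the start site. Much of P-TEFb is held inactive by HEXIM proteins on the 7SK RNA, and the super elongation complex brings the active form to genes. Short-lived mRNAs such as immediate early genes are known to respond first when this kinase is blocked.

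The shRNA target sites are shown because they fix which part of the mRNA was attacked. Both match the coding part of Cdk9 (GRCm38, GENCODE vM21, chromosome 2, minus strand), and neither matched a transcript of another gene. The site of shRNA1 lies in exon 5 of 7 at chr2:32709913-32709933 and was found in 7 of the 9 annotated Cdk9 transcripts. The site of shRNA2 lies in exon 7 at chr2:32708046-32708066 and was found in 4 of them. The sequences are those of the sense strand of each designed hairpin.
CDK9-shRNA1: ggacatgaaggctgcgaatgt
CDK9-shRNA2: gcatgctgtctactcacttga

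Cdk9 itself was counted 1931 and 2254 times in the control libraries and 1251 and 899 times in the Cdk9-KD libraries. Both knockdown libraries lay below both controls, and 53.1% of the control level was left on average. The log2 fold change (log2FC, Cdk9-KD minus control throughout) was -0.91 with an SE of 0.18. Its adjusted p in edgeR's quasi-likelihood test was 0.0985, so that the target did not pass the threshold of 0.05 used for all genes. Against Sox2-KD, where Cdk9 was counted 2282 and 2307 times, the adjusted p of the same test was 0.00734 with a log2FC of -1.03. Against the hnRNPK-labelled libraries, with 1882 and 2124 counts, it was 0.340 with a log2FC of -0.89. The SE was 0.18 in each contrast. An adjusted p also depends on the other genes, of which 1210 were called against Sox2-KD and 0 against the hnRNPK-labelled libraries. Without Cdk9-KD replicate 1 the log2FC against control was -1.19 (adjusted p = 0.0459), and without Cdk9-KD replicate 2 it was -0.70 (adjusted p = 0.269), so that the knockdown was deeper in replicate 2. mRNA was measured here, not CDK9 protein.

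The 8 libraries held between 16709201 and 17719366 counts. All 8 embryonic stem cell markers were at 1 CPM or more in each of the 4 libraries, with a summed level of 5419 to 6983 CPM. The fibroblast markers summed to 2.18 to 6.22 CPM, and 5 of the 10, among them Twist2 and Dcn, were at 0 in all 4. The blood markers summed to 7.05 to 16.5 CPM, mostly Cd68, with Hba-a1 and Hbb-bs at 0, and the neural ones to 58.3 to 80.9 CPM, mostly Nes and Tubb3, with Pax6 and Dcx at 0. The trophectoderm markers lay between 42.2 and 56.3 CPM, those of primitive endoderm between 13.5 and 18.4 CPM and those of mesendoderm between 16.2 and 35.3 CPM, with no marker at 0 in all 4. Hnrnpk mRNA was at the control level in 1 library labelled hnRNPK-KD, replicate 2, which is why that group is named only by its label.

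Cdk9-KD replicate 2 stood apart from the other libraries along chromosomes 8 and 10. The median of 521 expressed genes on chromosome 8 lay 0.25 above the median of the 8 libraries on the log2 scale in Cdk9-KD replicate 2, and between -0.034 and -0.0017 in the other 7. On chromosome 10 a stretch was found by scanning for the window of genes with the highest median in Cdk9-KD replicate 2. Its 25 expressed genes, from Cnot2 to Srgap1 (chr10:116485161-122047315, GRCm38), had a median of 0.94 in that library and of -0.34 in Cdk9-KD replicate 1. The next highest medians were 0.44 in hnRNPK-labelled replicate 2 and 0.26 in Sox2-KD replicate 2. Of the 25 genes, 24 were highest in Cdk9-KD replicate 2, but the stretch was picked for being high there. Cct2, a chaperonin subunit, was counted 14450 and 15531 times in control, 11336 times in Cdk9-KD replicate 1 and 30763 times in replicate 2. Mdm2, which encodes the ubiquitin ligase of p53, was counted 3141 and 3031 times in control and 2773 and 6430 times in Cdk9-KD. The cause was not tested, and none of the genes called below lies in either stretch.

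**Figure D1:**
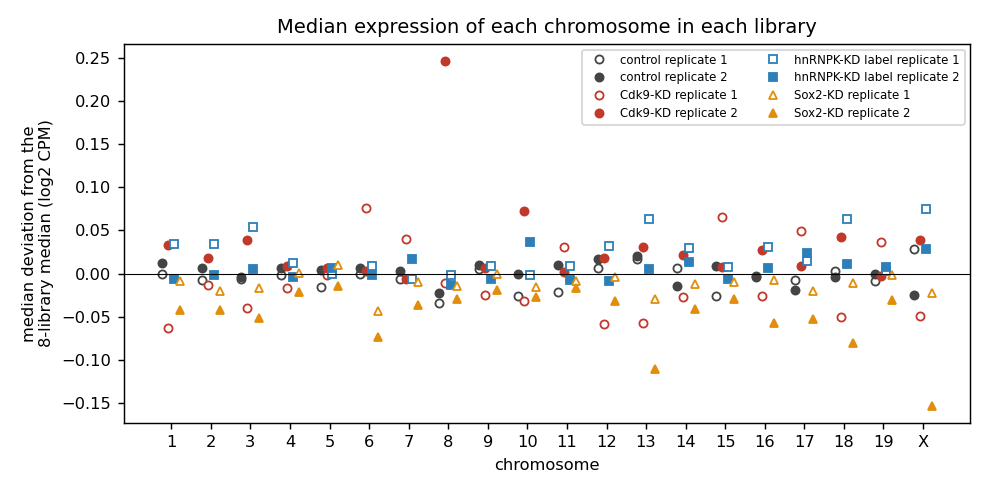
Median log2 CPM of the expressed protein-coding genes of each chromosome (x axis) as a deviation from the median of the 8 libraries (y axis, log2), with 1 point per library and open symbols for replicate 1. Cdk9-KD replicate 2 sits at 0.25 on chromosome 8, and no other autosome of any library is more than 0.111 from 0.

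The Cdk9-KD libraries also differed more from each other than the other pairs did. Among 9711 genes with an average log2 CPM over 3, 223 (2.3%) differed by more than 1 on the log2 scale between the Cdk9-KD replicates, against 85 between the controls, 140 between the libraries labelled hnRNPK-KD and 130 between those of Sox2-KD. Plagl1, an imprinted zinc finger gene, went from 1330 counts in replicate 1 to 5751 in replicate 2, and Dyrk2, Frs2 and Rap1b of the stretch on chromosome 10 were also among the 5 most extreme on that side, with Gm38393. On the other side stood 1700013H16Rik with 521 and 9 counts, the homeobox gene Rhox5 with 340 and 20, the helicase gene Ddx60 with 468 and 29, the germ cell factor Sohlh2 with 421 and 28 and the neurofilament gene Nefm with 501 and 35. Both controls of these 5 genes were at 231 counts or more, so that replicate 2 was far below its controls while replicate 1 was nearer to them or above.

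A gene was called where the adjusted p was under 0.05 and the absolute log2FC over 0.6. By this rule 23 genes were called, 0.139% of those tested, 9 higher (0.0545%) and 14 lower (0.0848%) in Cdk9-KD. At an unadjusted p under 0.05 there were 1720 genes (10.4%), 906 higher (5.49%) and 814 lower (4.93%). The median log2FC of all tested genes was 0.02, with an interquartile range of -0.20 to 0.25. The 9 higher genes are Mgat4c, Nt5e, Eomes, Islr2, Bmp4, Eif4g3, Spats2l, Basp1 and Smarcd1, and all 23 called genes are protein coding. In these bulk samples fewer cells of a kind and less RNA per cell cannot be told apart. Most or all of the 23 calls were lost when either control library, or Cdk9-KD replicate 2, was left out. Without Cdk9-KD replicate 1, 9 were higher and 23 lower, with 6 of the 9 higher and 6 of the 14 lower genes among them. DESeq2 called 81 higher and 141 lower, among them all 23, and the signs of the 23 held under every alternative in which they could be fitted.

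**Figure D2:**
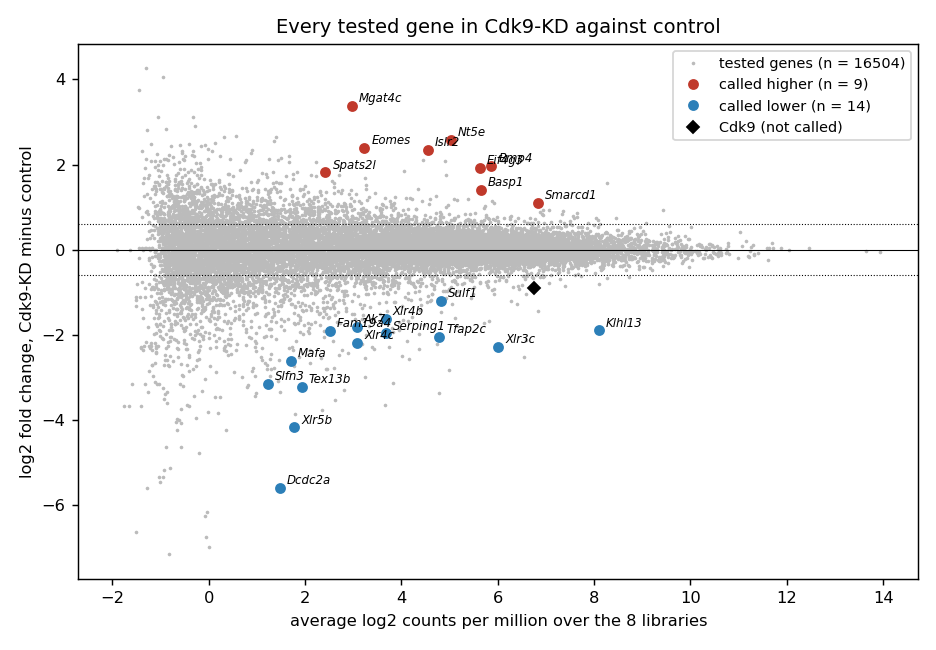
Each point is 1 tested gene, by its average log2 CPM over the 8 libraries (x axis) and its log2FC in Cdk9-KD (y axis). The 9 genes called higher (red) and the 14 called lower (blue) are named, the dotted lines mark a log2FC of 0.6 and -0.6, and Cdk9 (black) lies at -0.91.

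Of the higher genes, Eomes and Bmp4 are regulators of the early embryo. Eomes, a T-box factor of trophoblast and mesendoderm, was counted 68 and 45 times in control and 333 and 241 times in Cdk9-KD. The log2FC was 2.39 (SE 0.28, adjusted p = 0.0191). Bmp4, a ligand that supports naive mouse ESCs through SMAD and ID proteins, had 309 and 481 counts in control and 1511 and 1485 in Cdk9-KD. Its log2FC was 1.97 (SE 0.24, adjusted p = 0.0191), a level 3.92-fold higher. For both genes, which were called for this difference, the lowest Cdk9-KD library lay more than 3-fold above the highest control. Exons of Eomes overlap the antisense gene Gm33460 and those of Bmp4 overlap Gm15217, and since the strand setting is not stated their reads cannot be told apart.

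Nt5e (CD73), the ectoenzyme that turns AMP into adenosine, had 158 and 71 counts in control and 620 and 700 in Cdk9-KD (log2FC 2.58, SE 0.31). Islr2, a leucine-rich repeat protein of axons, had 167 and 129 counts against 700 and 752 (log2FC 2.34, SE 0.24), the smallest p of all genes. Islr2 shares exons with Islr on its strand and with 1600029O15Rik on the other, so that its count is uncertain. Mgat4c, a glycosyltransferase gene, showed the largest difference of the higher genes, from 16 and 35 counts to 226 and 288 (log2FC 3.37, SE 0.40). It is the 1 called gene on chromosome 10 and lies outside the raised stretch. Eomes, Islr2 and Nt5e are all on chromosome 9. Its 522 expressed protein-coding genes had median deviations of -0.025 and 0.0065 in the Cdk9-KD libraries. The share of tested genes on that chromosome was not set beside these calls, so no pattern is read from them.

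Eif4g3, a scaffold of the cap-binding complex in translation, went from 504 and 275 counts to 1657 and 1186 (log2FC 1.92, SE 0.30). Its relatives Eif4g1 and Eif4g2, added after the values were seen, had log2FC values of -0.06 and -0.04. Smarcd1, a subunit of the SWI/SNF (BAF) chromatin remodeller, had 1154 and 1233 counts in control and 2682 and 2285 in Cdk9-KD (log2FC 1.11, SE 0.14). Smarcd1 overlaps the antisense genes Gm17349 and Gm34939. Of other subunits, also added afterwards, Smarcd2 had a log2FC of -0.05, Smarca4 of 0.05, Smarcc1 of -0.05 and Arid1a of 0.21, while Smarcd3, at 36 and 54 counts in control, had 0.95 (adjusted p = 0.491). Basp1, a membrane protein of growth cones that also acts as a transcriptional corepressor, rose from 514 and 476 counts to 1115 and 1430 (log2FC 1.41, SE 0.20). Spats2l rose from 52 and 47 counts to 152 and 185 (log2FC 1.82, SE 0.29).

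**Figure D3:**
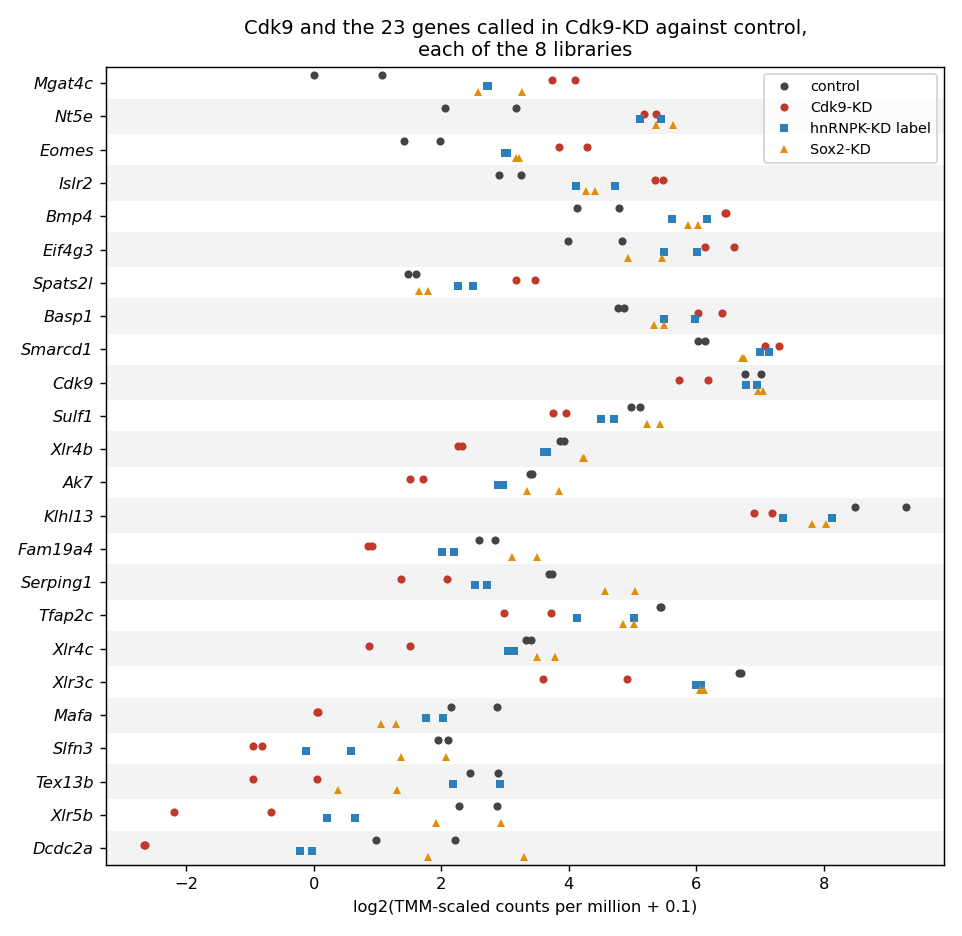
Level of Cdk9 and of the 23 called genes in each of the 8 libraries, as log2 of TMM-scaled CPM plus 0.1, ordered by log2FC in Cdk9-KD. The 2 Cdk9-KD points (red) lie on one side of the 2 control points (black) for every gene shown. The called genes were chosen for this difference, so their separation adds no support. Over all tested genes 21.2% lay above both controls in both Cdk9-KD libraries and 18.0% below. Points of the libraries labelled hnRNPK-KD (blue) often lie between those of Cdk9-KD and control.

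Of the 14 genes called lower, 6 are on the X chromosome, where 487 protein-coding genes were tested. Xlr5b, Xlr4b, Xlr4c and Xlr3c belong to the X-linked lymphocyte-regulated family, multicopy genes related to the synaptonemal complex protein SYCP3, and the others are Tex13b, a testis-expressed gene, and Klhl13, an adaptor of a cullin ubiquitin ligase. Xlr3c was counted 1850 and 1775 times in control and 515 and 203 times in Cdk9-KD (log2FC -2.29, SE 0.32, adjusted p = 0.0373). Xlr4c had 186 and 173 counts against 47 and 29 (log2FC -2.19, SE 0.29). Xlr4b had 258 and 263 counts against 84 and 79 (log2FC -1.63, SE 0.21), and Xlr5b 84 and 126 against 9 and 2 (log2FC -4.18, SE 0.61). In each of the 4 genes both Cdk9-KD libraries were far below both controls, the difference for which these genes were called.

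The promoters of these 4 genes are shown because the genes lie together and were called lower together. The sequences are from RefSeq (GRCm38.p6), 250 bases before to 50 after the annotated start, written 5′ to 3′ on the strand of the gene. Capitals mark CCAAT, a motif picked after the sequences were seen and searched as CCAAT and ATTGG. It was found in 8 of the 9 promoters of the Xlr3, Xlr4 and Xlr5 genes and in 37.4% of all 32851 promoters of the table. These promoters are not independent, since those of Xlr5a and Xlr5b share an identical run of 255 bases. The motif was present in Xlr3a, Xlr3b and Xlr4a, which were not called, and absent from Xlr5c (log2FC -3.22). It was in 10 of the 18 called genes that have a promoter there, against 41.1% of all genes. These 10 include the 4 Xlr genes shown, whose sequences were seen before the motif was picked. The share is therefore no separate test of the motif. Xlr4b lies at chrX:73214083-73214382 (plus strand), Xlr4c at chrX:73243081-73243380 (minus strand), Xlr3c at chrX:73265341-73265640 (minus strand) and Xlr5b at chrX:73148591-73148890 (plus strand).
Xlr4b: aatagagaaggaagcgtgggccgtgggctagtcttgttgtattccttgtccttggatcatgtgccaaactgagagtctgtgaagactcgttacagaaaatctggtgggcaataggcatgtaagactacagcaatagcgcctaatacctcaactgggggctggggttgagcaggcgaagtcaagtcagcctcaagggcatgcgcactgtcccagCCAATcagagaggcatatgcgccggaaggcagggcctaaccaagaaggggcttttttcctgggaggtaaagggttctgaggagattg
Xlr4c: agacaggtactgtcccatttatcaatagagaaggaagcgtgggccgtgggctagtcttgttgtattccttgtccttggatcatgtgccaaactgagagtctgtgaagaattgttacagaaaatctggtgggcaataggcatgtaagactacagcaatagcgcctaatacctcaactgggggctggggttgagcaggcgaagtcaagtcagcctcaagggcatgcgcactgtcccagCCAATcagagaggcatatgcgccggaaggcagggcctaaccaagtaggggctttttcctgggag
Xlr3c: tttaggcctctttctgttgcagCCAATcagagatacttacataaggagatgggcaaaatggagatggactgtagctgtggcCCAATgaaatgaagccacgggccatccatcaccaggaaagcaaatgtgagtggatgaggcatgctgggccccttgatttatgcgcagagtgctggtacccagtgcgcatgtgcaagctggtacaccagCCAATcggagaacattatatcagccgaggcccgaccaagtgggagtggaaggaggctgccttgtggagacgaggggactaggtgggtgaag
Xlr5b: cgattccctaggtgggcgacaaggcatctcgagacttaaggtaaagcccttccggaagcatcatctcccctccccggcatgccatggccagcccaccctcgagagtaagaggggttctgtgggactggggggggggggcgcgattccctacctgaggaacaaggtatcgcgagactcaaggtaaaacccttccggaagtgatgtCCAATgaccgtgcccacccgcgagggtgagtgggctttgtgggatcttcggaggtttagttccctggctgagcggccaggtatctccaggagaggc
The Xlr4b and Xlr4c promoters share an identical run of 169 bases. Xlr4b and Xlr4c hold 1 match of the motif each, Xlr3c holds 3 and Xlr5b 1.

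The 9 Xlr3, Xlr4 and Xlr5 genes span chrX:73074345-73292976, and all 9 had a log2FC below 0, with a median of -2.19. Xlr5a (120 and 219 counts against 19 and 5) and Xlr5c (64 and 92 against 13 and 3) had log2FC values of -3.76 and -3.22 with adjusted p of 0.0502 and 0.116. Xlr3a, Xlr3b and Xlr4a had values of -0.52, -0.48 and -0.53, and none of these 3 was called. The 10 tested genes before the cluster had a median of 0.01 and the 10 after it of -0.01. Gm18336 (865 and 896 counts against 342 and 146, log2FC -1.80, adjusted p = 0.0541) and the phosphatase gene Dusp9 (log2FC -1.46, adjusted p = 0.186) were the lowest of these. The copies vary in how close they are in sequence, with 98.91 to 99.27% identity between the longest transcripts of Xlr5a, Xlr5b and Xlr5c, 85.98 to 97.96% among the Xlr3 genes and 65.33 to 94.32% among the Xlr4 genes. How shared reads were counted is not stated, so that the values of single copies are uncertain.

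**Figure D4:**
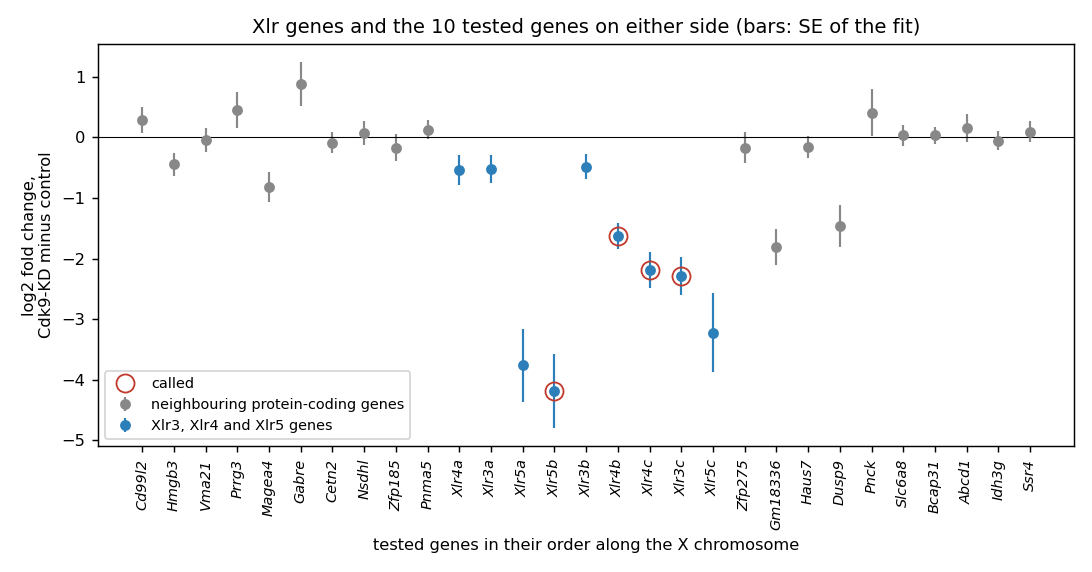
The log2FC in Cdk9-KD (y axis, bars are the SE of the fit) of the 9 Xlr genes (blue) and of the 10 tested protein-coding genes on either side (grey), in their order on the X chromosome. The 4 called genes are ringed, and the neighbours on both sides have medians near 0.

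Tex13b had 130 and 94 counts in control and 16 and 7 in Cdk9-KD (log2FC -3.22, SE 0.51). Klhl13 was the called gene with the most reads, 6379 and 10994 counts against 2060 and 2464 (log2FC -1.89, SE 0.29), and shares exons with Gm14523. On the autosomes Tfap2c, which encodes the factor AP-2γ of trophoblast and germ cells, had 771 and 751 counts in control and 225 and 132 in Cdk9-KD (log2FC -2.04, SE 0.31, adjusted p = 0.0416). Serping1, the inhibitor of the complement cascade, had 235 and 224 counts against 71 and 42 (log2FC -1.97, SE 0.29). Slfn3, an interferon-inducible Schlafen gene, had 67 and 73 counts against 8 and 7 (log2FC -3.15, SE 0.47). For each of these genes the Cdk9-KD libraries lay below both controls, which is the difference they were called for.

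Sulf1, a sulfatase that edits heparan sulfate at the cell surface, had 560 and 604 counts in control and 263 and 227 in Cdk9-KD (log2FC -1.20, SE 0.18), the smallest difference of the lower genes. Ak7, an adenylate kinase of cilia, had 188 and 181 counts against 47 and 54 (log2FC -1.82, SE 0.27), and Mafa, a basic leucine zipper factor of the pancreatic beta cell, 129 and 76 against 16 and 16 (log2FC -2.62, SE 0.39). Fam19a4, a secreted chemokine-like protein, had 126 and 104 counts against 29 and 30 (log2FC -1.91, SE 0.30). Dcdc2a, a doublecortin-domain gene of cilia, had 33 and 79 counts in control and 1 in each Cdk9-KD library. Against a floor of 3 counts per library its level was at least 10.5-fold lower.

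Because each called gene was chosen for its difference from control, its level against the other knockdowns is given as a test of that contrast alone, and these comparisons share the Cdk9-KD libraries. Over all genes 1210 (7.33%) were called between Cdk9-KD and Sox2-KD, and 0 (0%) between Cdk9-KD and the libraries labelled hnRNPK-KD, where edgeR's quasi-likelihood test gave 943 genes (5.71%) at an unadjusted p under 0.05. Nt5e had 749 and 870 counts in Sox2-KD and 593 and 746 in the hnRNPK-labelled libraries, and did not pass against either (adjusted p = 0.703 and 0.999). Its level was above both controls in all 6 shRNA libraries other than the controls. Bmp4 had 1065 and 1148 counts in Sox2-KD and 840 and 1229 in the hnRNPK-labelled libraries (adjusted p = 0.229 and 0.833 against Cdk9-KD).

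Of the 23 genes, 15 were called against Sox2-KD too, 4 of the 9 higher and 11 of the 14 lower. The 23 were chosen on the same Cdk9-KD libraries, so this share is not to be read against the 7.33% of all genes. In Sox2-KD against control, 7 of the 23 were also called. Serping1 had 428 and 573 counts in Sox2-KD, above both controls, where Cdk9-KD had 71 and 42 (adjusted p = 0.000924). Xlr4b was at 341 and 324 counts in Sox2-KD (adjusted p = 0.0012) and Xlr4c at 205 and 240 (adjusted p = 0.00162). Spats2l had 55 and 59 counts in Sox2-KD, near its controls (adjusted p = 0.00777). Against the hnRNPK-labelled libraries no adjusted p of the 23 was under 0.28, the value for Xlr4b, at 214 and 209 counts there, and Xlr4c, at 139 and 150. In the hnRNPK-labelled libraries minus control, log2FC values were -2.24 for Xlr5b, -0.65 for Xlr3c, -0.26 for Xlr4b and -0.27 for Xlr4c. There all 9 higher genes had a log2FC above 0 and all 14 lower genes below 0. In Sox2-KD minus control the 9 were above 0 and 7 of the 14 below. These signs share the control libraries.

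The lists below are described by their counts at an unadjusted p under 0.05, to be read against 5.49% higher and 4.93% lower over all genes, and by their median beside 0.02 over all genes. Of the 36 medians 24 changed sign when 1 of the 4 control and Cdk9-KD libraries was left out, so that for those lists the median gives no direction. Of the P-TEFb, 7SK and super elongation complex list 17 of 19 genes were tested, and none was called. Besides Cdk9, Larp7, the protein that binds and stabilises 7SK RNA, had 2344 and 2405 counts in control and 1735 and 1678 in Cdk9-KD (log2FC -0.43, SE 0.13, adjusted p = 0.313). Ell, an elongation factor of the super elongation complex, had 480 and 481 counts against 609 and 576 (log2FC 0.35, adjusted p = 0.469). These were the members at an unadjusted p under 0.05, 2 lower and 1 higher.

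The cyclin partners Ccnt1 and Ccnt2 had log2FC values of -0.01 and -0.03. Their Cdk9-KD libraries differed, with 1801 and 2773 counts of Ccnt1 and 2781 and 4374 of Ccnt2. The inhibitors Hexim1 and Hexim2 had values of 0.19 and 0.09 and the 7SK capping enzyme Mepce 0.26. The scaffolds Aff1 and Aff4 had 0.23 and 0.34, and Ell2 and Ell3 had 0.17 and -0.14. Eaf1 and Eaf2, partners of the ELL proteins, had 0.05 and 0.01, and the YEATS readers Mllt1 and Mllt3 had 0.23 and -0.35. The median of the list was 0.09, and it was 0.16 without Cdk9-KD replicate 1 and 0.02 without Cdk9-KD replicate 2. Rn7sk and Aff3 were below the filter and not tested.

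Of 16 NELF, DSIF and PAF elongation factors 2 were higher at an unadjusted p under 0.05 and 0 lower, with a median of 0.02. These were Supt5, the large DSIF subunit (3155 and 3414 counts against 4405 and 3872, log2FC 0.38), and Paf1 (log2FC 0.32), while Nelfcd had 0.33. None of 12 other transcriptional CDKs and cyclins and none of 15 cleavage and termination factors reached that level, and their medians were 0.02 and 0.06. Among them Ccnl2, Ccnl1 and Ccnk had values of 0.29, 0.22 and 0.17, and Ints11, Wdr33 and Ints1, of the Integrator and polyadenylation complexes, had -0.31, 0.22 and 0.17.

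Of 22 immediate early genes 18 were tested, with 3 higher and 1 lower at an unadjusted p under 0.05 and a median of 0.04, which turned to -0.17 and -0.02 without Cdk9-KD replicate 1 or 2 and to -0.07 without control replicate 2. Klf6 had 725 and 708 counts in control and 847 and 1434 in Cdk9-KD (log2FC 0.72), Ier2 1275 and 1180 against 2106 and 1471 (log2FC 0.59), and Jun 58 and 45 against 198 and 60 (log2FC 1.37). Of 14 short-lived growth and survival mRNAs 0 were higher and 1, Ccne1, was lower (log2FC -0.46), with a median of -0.09. Ccnd1 had -0.62 without separating from its controls. Mdm2 had 0.63 and lies in the stretch of chromosome 10 described above. None of the genes of these lists was called.

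All 24 naive and core pluripotency genes were tested, with 4 higher and 3 lower at an unadjusted p under 0.05 and a median of 0.22 (0.07 with control replicate 1 left out and 0.05 without Cdk9-KD replicate 1). Utf1 had 458 and 539 counts in control and 982 and 750 in Cdk9-KD (log2FC 0.84, adjusted p = 0.137), Tbx3 4541 and 5600 against 9319 and 7094 (log2FC 0.74), and Klf2 2792 and 3246 against 4554 and 4296 (log2FC 0.60). Dppa3, a marker of germ cells and of a subset of ESCs, had a log2FC of -2.73 at low counts. Of 12 formative and primed genes 3 were higher and 3 lower. Otx2 had 27 and 31 counts against 105 and 94 (log2FC 1.82, adjusted p = 0.155), and the DNA methyltransferase Dnmt3b had 2739 and 3170 against 1623 and 1932 (log2FC -0.68). Their median of 0.32 was -0.02 with control replicate 1 left out and -0.18 without Cdk9-KD replicate 1. Neither list held a called gene.

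The lineage lists held few genes. Of 11 tested mesendoderm genes Eomes alone reached an unadjusted p under 0.05, while T (Brachyury) had 187 and 456 counts in control and 248 and 230 in Cdk9-KD (log2FC -0.38), and Cdx1 had 0.31. Of 13 trophectoderm genes Tfap2c was called lower and Tfap2a was higher at that level (log2FC 0.95), with a median of -0.38, which was -0.13 without Cdk9-KD replicate 1. The imprinted RNA H19 had under 10 counts in all 4 libraries and 985 and 2815 in Sox2-KD. It thus passed the filter through other libraries, and its log2FC of -3.36 enters the median of this list. Of 14 primitive and visceral endoderm genes 1 was higher and 0 lower, and Lama1, Apoe and Sparc had values of 0.43, 0.44 and 0.38. Of 7 neuroectoderm genes 1, Otx2, was higher and 2 were lower, Nefl (661 and 622 counts against 455 and 193) and Nefm (1080 and 1336 against 501 and 35), both lowest in Cdk9-KD replicate 2. Exons of Nefl and Nefm overlap on opposite strands, so that their counts are uncertain and may share reads.

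The 14 tested genes of the 2-cell embryo, of 18 listed, all had a log2FC below 0, with a median of -2.47, and 7 were lower at an unadjusted p under 0.05. This rested on control replicate 1. Zscan4c, a marker of the rare 2-cell-like state of ESC cultures, was counted 152 times in control replicate 1, 10 times in control replicate 2 and 8 and 7 times in Cdk9-KD. Gm5662 had 139 and 13 counts against 11 and 6. Without control replicate 1 the median of the list was -0.35. Obox6 differed from the other members, with 56 and 139 counts in control and 13 and 18 in Cdk9-KD (log2FC -2.60, adjusted p = 0.151). It was as low in the other knockdowns, with 11 and 18 counts in Sox2-KD and 8 and 19 in the hnRNPK-labelled libraries.

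Of 31 germline and meiosis genes 29 were tested. Xlr4b, Xlr5b and Tex13b were called lower, 14 were lower and 1 was higher at an unadjusted p under 0.05, and the median was -0.50 (from -0.79 to -0.42 with any 1 library left out). The list holds 6 Xlr genes, all among the 14. Of the others, named after their values were seen, Hormad1, an organiser of meiotic chromosome axes, had 492 and 581 counts in control and 92 and 26 in Cdk9-KD (log2FC -3.14). Smc1b, a meiotic cohesin subunit, had 127 and 250 against 32 and 20 (log2FC -2.81, adjusted p = 0.0987), and Dazl, an RNA-binding protein of germ cells, 346 and 458 against 151 and 67 (log2FC -1.84). Smc1b was also low in the hnRNPK-labelled libraries, with 12 and 25 counts, but had 84 and 205 in Sox2-KD. Ddx4, the germ cell helicase, was the 1 higher member (64 and 52 counts against 107 in each, log2FC 0.93), and the synaptonemal complex genes Sycp1 and Sycp3 had 0.10 and -0.03. Of the 29 tested members 9 had a log2FC above 0, against 52.4% of all genes.

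Among 17 tested BMP and SMAD target genes Bmp4 was called, 4 were higher and 2 lower at an unadjusted p under 0.05. The median was -0.01, but 0.18 without Cdk9-KD replicate 1, and 0.24 and 0.14 with control replicate 1 or 2 left out. Smad7 had 1927 and 2143 counts in control and 4750 and 2331 in Cdk9-KD (log2FC 0.84), with most of the difference in replicate 1, and the other inhibitory SMAD, Smad6, had 86 and 96 against 28 and 16 (log2FC -2.0, adjusted p = 0.16). Id1 and Id3, direct BMP targets, had log2FC values of 1.05 and 1.76. Of 14 Nodal and Activin genes 1 was higher, the antagonist Lefty2 (527 and 328 counts against 734 and 953, log2FC 1.03), and Nodal and its receptor Acvr2a had 0.33 and 0.28.

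Of 18 FGF and ERK feedback genes 14 were tested, with 5 higher and 0 lower at an unadjusted p under 0.05 and a median of 0.29, between 0.16 and 0.37 with any 1 library left out. Spry4, an inhibitor of receptor tyrosine kinase signals, had 131 and 208 counts in control and 974 and 426 in Cdk9-KD (log2FC 2.09, adjusted p = 0.097). Dusp6, the ERK phosphatase, had 221 and 293 counts against 830 and 362 (log2FC 1.26), and Spred1 had 0.52. For Spry4 and Dusp6 replicate 1 was the higher of the Cdk9-KD libraries. None was called, and all cells were grown with the MEK inhibitor. Of 18 tested Wnt targets and inhibitors 1, Notum, was higher (log2FC 0.73) and 2, Dkk3 (229 and 440 counts against 119 and 105, log2FC -1.53) and Lef1 (log2FC -0.92), were lower. Their median of -0.25 became 0.34 without control replicate 2. Dkk3 was also below both controls in Sox2-KD, with 75 and 112 counts, and in the hnRNPK-labelled libraries, with 70 and 118.

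Of 21 tested interferon response and antigen presentation genes Slfn3 was called lower, 5 were lower and 1 higher at an unadjusted p under 0.05, with a median of -0.34 (-1.08 without Cdk9-KD replicate 1). Oas1a, a synthetase of the antiviral oligoadenylate signal, had 944 and 1081 counts in control and 486 and 407 in Cdk9-KD (log2FC -1.13, adjusted p = 0.0703). Ddx58, which encodes the RNA sensor RIG-I, had 574 and 497 against 817 and 797 (log2FC 0.64). Of 23 p53 targets 0 were higher and 2 lower, Pmaip1 (NOXA, 365 and 225 counts against 141 and 71, log2FC -1.43) and Sesn1 (log2FC -0.69), with a median of -0.12, which was -0.29 without Cdk9-KD replicate 1 and 0.04 without Cdk9-KD replicate 2. Of 21 ATF4 and unfolded protein response genes 1 was lower, Psat1 (log2FC -0.48), with Ddit3 and Shmt2 at 0.33 each, and of 14 heat shock genes 1 was higher, Hsf1 (log2FC 0.47), with Dnajb1 at 0.27 and Hspa1b at -0.53. None of these was called besides Slfn3.

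The 26 glycolysis and hypoxia genes were all tested, as 27 rows because Aldoa has 2 identifiers. Pdk1, a kinase that inhibits pyruvate dehydrogenase, had 1241 and 1399 counts in control and 2460 and 2420 in Cdk9-KD (log2FC 0.93, adjusted p = 0.155). Gpi1 had 0.36, and Vegfa had -1.28 with control counts of 1340 and 426. Of 27 tested cholesterol and fatty acid genes 1 was lower at an unadjusted p under 0.05, Acly (log2FC -0.41), and Idi1 and Srebf1 had 0.57 and 0.44. The medians of these lists were 0.10 and 0.10 and turned to -0.13 and -0.20 without control replicate 2. Of 10 tested ectonucleotidases and alkaline phosphatases Nt5e was called higher and 3 of low abundance were lower, with a median of -0.74. Ada, which removes adenosine, had -0.30 and Alpl, the tissue-nonspecific alkaline phosphatase, 0.35.

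All 24 DNA replication and cell cycle genes were tested, and 23 had a log2FC below 0 (47.6% of all genes), but none was called and 4 were lower at an unadjusted p under 0.05. The differences were small, with a median of -0.19, between -0.28 and -0.17 with any 1 library left out, and in 16 of the 24 both Cdk9-KD libraries were below both controls (18% of all genes). Gins1, of the replicative helicase, had 1025 and 954 counts against 693 and 671 (log2FC -0.49), the mitotic cyclin Ccnb1 had 7872 and 7404 against 5511 and 5711 (log2FC -0.40), and Mcm4 had 7751 and 8932 against 5940 and 6634 (log2FC -0.36). In Sox2-KD minus control the log2FC values of Gins1, Ccnb1 and Mcm4 were -0.61, -0.42 and -0.59. In the hnRNPK-labelled libraries minus control they were -0.23, -0.11 and -0.20.

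**Figure D5:**
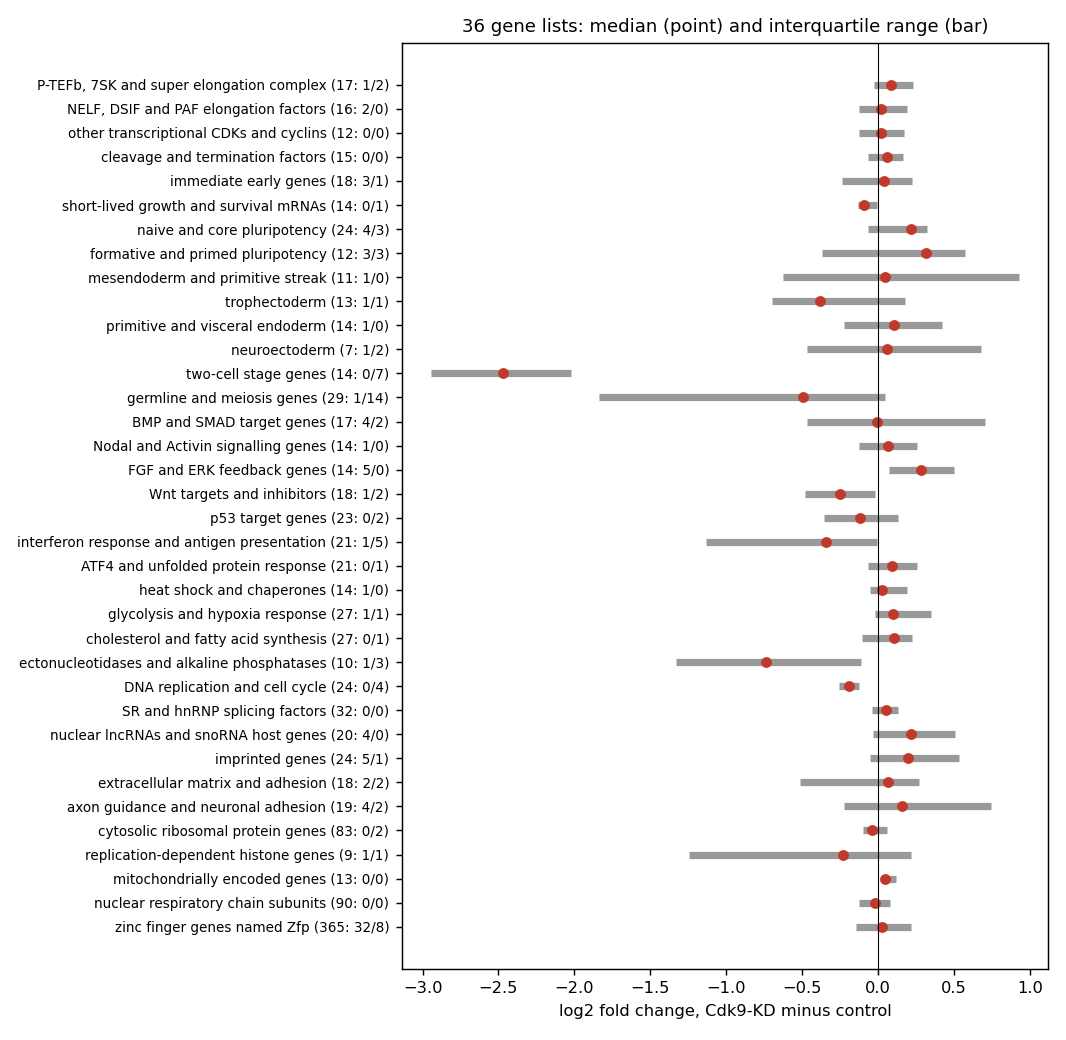
Median log2FC in Cdk9-KD (point) and interquartile range (bar) of each of the 36 gene lists, with the number of tested genes and, after the colon, the number higher and lower at an unadjusted p under 0.05. Most medians lie near the 0.02 of all genes, that of the 2-cell list (-2.47) rests on control replicate 1, and the germline list spans -1.84 to 0.05.

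Of 32 SR and hnRNP splicing factors 0 reached an unadjusted p under 0.05 in either direction, with a median of 0.05. Mbnl1 had -0.50, Srsf2 0.25 and Srsf6 0.24. Of 20 tested nuclear lncRNAs and snoRNA host genes 4 were higher and 0 lower, with a median of 0.21 (-0.05 without control replicate 2). Miat had 32 and 19 counts against 72 and 47 (log2FC 1.27), Snhg14 had 445 and 429 against 438 and 934 (log2FC 0.70, from replicate 2 alone), and Tsix had 0.69. Tsix is antisense to Xist and its count is uncertain for that reason. Of 24 tested imprinted genes 5 were higher and 1 lower, with a median of 0.20 (-0.02 without Cdk9-KD replicate 2), among them Mest (log2FC 0.61), Ndn (log2FC 0.76) and the amino acid transporter Slc38a4 (log2FC -0.66).

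Of 18 tested matrix and adhesion genes 2 were higher and 2 lower. Zyx, a focal adhesion protein, had 135 and 134 counts in control and 336 and 272 in Cdk9-KD (log2FC 1.22, adjusted p = 0.0984), while Itga5 and Epcam had log2FC values of -0.79 and -0.84. Of 19 tested axon guidance genes Islr2 was called, and 4 were higher and 2 lower at an unadjusted p under 0.05. Epha2, an ephrin receptor, had 1533 and 1440 counts against 3024 and 2058 (log2FC 0.82, adjusted p = 0.155), and the guidance cue Ntn1 had 2071 and 2484 against 3303 and 3708 (log2FC 0.67).

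Of the large housekeeping classes, the 83 ribosomal protein genes had a median of -0.04, with 0 higher and 2 lower at an unadjusted p under 0.05. These were Rpl39l (2292 and 2044 counts against 1426 and 1210, log2FC -0.67) and Rpl10l (log2FC -0.35), copies of other ribosomal protein genes whose reads may be shared, and Rps27l had -0.29. The ribosomal median was -0.20 without Cdk9-KD replicate 1 and 0.09 without Cdk9-KD replicate 2. The 13 mitochondrially encoded genes had a median of 0.04 and the 90 nuclear respiratory chain genes of -0.02, with none at that level. These medians turned in the same way, to -0.14 and -0.20 without Cdk9-KD replicate 1 and to 0.19 and 0.09 without Cdk9-KD replicate 2. Ndufv3, Ndufv2 and Atp5c1 had 0.38, -0.29 and -0.27, and mt-Nd6, mt-Nd5 and mt-Atp8 had 0.31, 0.12 and -0.28. Of 67 replication-dependent histone genes 9 passed the filter in these oligo(dT) libraries, 1 higher (Hist1h2bc, log2FC 0.61) and 1 lower, and Hist1h1c had 0.30. Of 365 tested Zfp genes 32 were higher and 8 lower, with a median of 0.02. That median was 0.12 without Cdk9-KD replicate 1, -0.11 without Cdk9-KD replicate 2 and -0.04 without control replicate 2. Zfp57, which guards imprints, had 8802 and 7521 counts against 16374 and 13467 (log2FC 0.92, adjusted p = 0.0561), Zfp512b had 390 and 280 against 824 and 647 (log2FC 1.18, adjusted p = 0.0541), and Zfp619 had -0.80.

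By gene class, the 13527 protein-coding genes held all calls and had a median of 0.02. The medians of 491 lincRNAs, 432 antisense genes and 213 processed transcripts were 0.12, 0.13 and 0.20, and that of 1039 processed pseudogenes was -0.12, with 8 higher and 38 lower at an unadjusted p under 0.05. Pseudogene and antisense counts are uncertain, since they share sequence or position with other genes. By genomic span the medians of protein-coding genes were 0.03 under 5 kb, 0.06 from 5 to 20 kb, 0.01 from 20 to 50 kb, -0.02 from 50 to 100 kb and -0.02 over 100 kb. The shortest class had -0.12 without Cdk9-KD replicate 1 and 0.11 without Cdk9-KD replicate 2. The 310 genes with 1 exon had a median of -0.0047. Those on the X chromosome had 0.02, the same as the autosomes, with 10.5% of X-linked genes lower at an unadjusted p under 0.05 against 5.02% of autosomal ones. A change in mRNA per cell that is shared by all genes cannot be seen in these data, since the counts were scaled to each library's total.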

How the data were processed

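RNA-seq counts of 8 libraries were used, 4 of them for the main comparison. The authors trimmed reads with Trimmomatic and aligned them with STAR to mm10 (GENCODE vM23 in the methods). The submitters' processing notes name FastQC, STAR 2.7.9a and featureCounts 2.0.1, while the methods name another STAR release. The deposited values are raw counts for each gene and library, with no scaling and no pooling by the authors. Strand setting and the handling of shared reads are not given in the sources used here. Symbols and positions were taken from GENCODE vM21 (55154 of 55335 genes matched).

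Low counts were removed by filterByExpr over all 8 libraries. It asks for a CPM matching about 10 counts in at least 2 libraries, and at least 15 counts in total. A gene could therefore pass through Sox2-KD or the hnRNPK-labelled libraries alone. The other genes were tested with edgeR 4.0.16 in R 4.3.3 (TMM, group term over all 8 libraries, quasi-likelihood test, Benjamini-Hochberg adjustment). Calls needed an adjusted p under 0.05 with a log2FC of over 0.6 in size. log2FC and adjusted p in the text are from this test unless another is named, and SE is its standard error. CPM are TMM-scaled, except for marker sums.

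On simulated data with 15765 genes the test recovered 51% of genes changed by 1 and 93.1% of those changed by 2 on the log2 scale, with 12 false calls among 157. Each gene was simulated with the same spread in all libraries, and only genes above 1 CPM in control were changed. The real Cdk9-KD libraries differed more from each other than the other pairs did, so these rates may be too high for them. Alternatives were DESeq2 1.42.0, other tests of edgeR, scalings, filters, thresholds and sets of libraries, a replicate block, removal of GC and length trends, and each control and Cdk9-KD library left out.

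The genes named are Cdk9, all called genes, of each list the called members and the 3 tested members of smallest p with an average log2 CPM over 1, all tested P-TEFb members except 1 that is not reported here, and the 5 genes each way that differed most between the Cdk9-KD replicates. Others are said to be chosen after their values were seen, including Dppa3, Id1, Id3, Ddx4, Sycp1, Sycp3, Cct2 and the other Xlr genes. The members and lists were chosen with earlier results of these data known. With 2 replicates a group, each p-value sets a difference against a spread estimated over all 8 libraries and partly shared across genes. It covers no variation beyond these libraries. The sequences of the shRNA targets were taken from the study's oligonucleotide table, without the hairpin's loop and ends.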

Additional observations from a re-analysis of the deposited data

How the results depend on the processing

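The 23 calls depended on the test and on each of the 4 libraries compared, the ones left out in turn. DESeq2 gave 81 genes higher and 141 lower, the likelihood ratio test 108 and 171, and the exact test 94 and 148, each with all 23 among them. With GC and length trends removed there were 16 and 30, and with the replicate block on top of that 21 and 42. Requiring at least 10 counts in every library left 9 lower. Leaving out 1 library gave between 0 and 9 genes higher and between 0 and 23 lower. Other scalings, no filter, fewer groups in the fit and other fold thresholds stayed within 1.5 times of 9 and 14 in number. With only the 4 libraries 12 of the 23 were still called, and without the hnRNPK-labelled libraries 15 were. Leaving chromosome 8 and the raised part of chromosome 10 out of the count, added after seeing the data, could not change it, since no called gene lies there. The replicate numbers were not taken to pair the samples. The correlation of the replicate differences was -0.06 between control and Cdk9-KD and ran from -0.22 to 0.21 over the 6 pairs of groups. With the replicate block 6 genes were higher and 9 lower.

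Cdk9 passed the threshold with DESeq2 (log2FC -0.93), the likelihood ratio test (-0.91), the exact test (-0.91), GC and length trends removed (-0.92) and the replicate block with these removed (-0.92). With 1 library left out its log2FC lay between -1.19 and -0.70. No called gene turned direction under any alternative in which it could be fitted. Of 575 medians of lists under an alternative 57 moved by more than the spread between replicates, 43 of them with 1 library left out. Low counts limit 4 of the lower genes, Dcdc2a, Slfn3, Xlr5b and Tex13b, which had a library under 10 counts. In fits without 1 library the lone library is assumed to vary like the other groups.

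The direction turned for genes near 0 or apart between replicates. Eaf2 was at -0.0012 with DESeq2, -0.0017 with RLE size factors, -0.0029 with 10 counts in every library, -0.017 without the libraries labelled hnRNPK-KD and from -0.29 to 0.32 with 1 library left out. With 1 library left out the log2FC of Ddx60 ran from -3.79 to 0.24, of Sohlh2 from -3.29 to 0.63, of T from -0.93 to 0.39, of Ell3 from -0.48 to 0.22 and of Ccnt1 and Ccnt2 from -0.36 to 0.25 and from -0.40 to 0.24. Eaf1 ran from -0.14 to 0.19, Hexim2 from -0.039 to 0.15, Ell2 from -0.18 to 0.42, mt-Nd5 from -0.079 to 0.27, Dnajb1 from -0.0081 to 0.47, Hist1h1c from -0.20 to 0.68 and Apoe from -0.028 to 0.77. Mdm2 ran from -0.11 to 1.09, Gm38393 from -0.59 to 1.27, Plagl1 from -0.77 to 1.33, Rap1b from -0.42 to 1.34, Frs2 from -0.44 to 1.47 and Dyrk2 from -0.55 to 1.51. For the last 6 the value without Cdk9-KD replicate 2 was the low end.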

Other observations

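Beyond the called genes, 35 genes had an adjusted p between 0.05 and 0.1 with an absolute log2FC over 0.6, 15 higher and 20 lower, Cdk9 among them (edgeR's quasi-likelihood test, values given for genes chosen after they were seen). Nlrp4c and Nlrp9b, NLR genes of the oocyte, had 25 and 54 counts against 4 and 1 (log2FC -3.87) and 106 and 142 against 26 and 15 (log2FC -2.54). Gm13128 had 492 and 758 counts against 141 and 117 (log2FC -2.23), and Pramef17, of the PRAME family, had 242 and 411 against 75 and 55 (log2FC -2.28). These belong to multicopy families, and how shared reads were counted is not stated.

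Others are of general function. Gadd45b, a stress-induced gene, had 414 and 364 counts against 150 and 183 (log2FC -1.17), and Usp3, a ubiquitin protease of histones, had 497 and 647 against 257 and 229 (log2FC -1.19). Prps1, the enzyme that makes the ribose donor of nucleotides, had 3216 and 3242 against 1971 and 1674 (log2FC -0.78). Star, which carries cholesterol into mitochondria, had 184 and 216 counts against 403 and 482 (log2FC 1.19). Star is on chromosome 8, and both Cdk9-KD libraries were above both controls. Spg7, a mitochondrial protease gene of the same chromosome, had 885 and 926 against 1498 and 1487 (log2FC 0.77), with as high a count in replicate 1 as in replicate 2.

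Both Cdk9-KD libraries were above all other libraries for Dock10 and Ica1. Dock10 had 10 and 7 counts in control, 64 and 40 in Cdk9-KD and 12, 9, 8 and 6 in the other 4 libraries (log2FC 2.64, adjusted p = 0.0686). Ica1 had 51 and 44 counts in control, 185 and 125 in Cdk9-KD and between 37 and 56 in the others (log2FC 1.75, adjusted p = 0.097). Trh, the gene of thyrotropin-releasing hormone, had 3249 and 2020 counts in control and 8855 and 6315 in Cdk9-KD (log2FC 1.58, adjusted p = 0.127), with 6407 and 11590 where the label is hnRNPK-KD, and 2620 and 1549 in Sox2-KD.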
